A study of Homo sapiens with 38 samples.

Results

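The loss of genes that SNU-398 cells need for growth was followed in a CRISPR knockout screen, by comparing guides in cells grown for 14 days with vehicle with guides in cells harvested at the start (T0). SNU-398 is an established line of human hepatocellular carcinoma that carries an activating CTNNB1 mutation. The cells made Cas9 and mCherry from a lentivirus, were sorted as a Cas9-expressing population, received the TKOv3 library of knockout guides and were selected with puromycin, so both groups share these steps. The vehicle group was kept in DMSO for 14 days, and the T0 group was collected after selection. Of the 38 samples in the series, 4 belong to this comparison, 2 vehicle and 2 T0 libraries, and were chosen by the line and group in their labels. The vehicle libraries are labelled T1. They were read as vehicle since, of the 8 groups the methods describe, it is the 1 that no other label names. Guides were grouped by the gene they target, and guides to LacZ, luciferase and EGFP, which have no target in the human genome, served as controls. No RNA was measured in SNU-398 here, so the line could not be checked against liver markers.

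In such a screen each cell carries 1 knockout, and the guide in its genome is its barcode. Cells that lose a gene they need to divide or survive leave fewer descendants, so its guides become rarer between T0 and the later harvest, while guides to genes the cell does not use keep their share. Genes for the ribosome, the proteasome, splicing, DNA replication and mitosis are the classic examples of the first kind, and olfactory receptors and hair keratin-associated proteins of the second. Loss of a growth suppressor such as RB1 can make guides more common.

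The table held 66582 guides, of which 135 were controls, and the others were assigned to 18036 genes. Total counts were 21983238 and 11558112 in the vehicle libraries, against 46043970 and 27184564 in the T0 libraries. The counts were unevenly spread over guides. In each of the 4 libraries the most abundant 1% of guides held 40.5% to 40.6% of the counts, and the median guide had 22 and 12 counts with vehicle, against 42 and 26 at T0. A mean T0 count of at least 30 was reached by 34640 guides (52.0%), and 11738 genes had at least 2 such guides. Even numbers made up 97.4% and 89.5% of the counts above 0 with vehicle, against 96.5% and 86.3% at T0, so 1 count may not equal 1 read. Replicate libraries were very alike. Between the vehicle libraries the mean chi-square per guide was 2.49 for guides with 100 to 1000 counts in the pair, and 1.24 once the counts were halved. Between the T0 libraries it was 2.56, and 1.28 once halved. Sampling noise alone gives 1. The first vehicle library against the first T0 library gave 15.4. Whether a group's libraries came from different cultures is not stated. The edgeR p-values below rest on this narrow and perhaps technical spread alone. Those of NormZ, a score defined below, rest on the spread between guides in these same libraries, so neither measures a spread between cultures.

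How far guides moved depended on how abundant they were at T0. The log2 ratio of a guide is the log2 of its vehicle over its T0 value, after scaling every library to 10000000 counts and adding 5, averaged over both numbered library pairs. The standard deviation of this ratio between guides was 0.85 for guides with 30 to 100 counts at T0, 0.40 for those with 300 to 1000, and 0.14 above 10000. The spread between the 2 pairs for the same guide was smaller at every depth, 0.42, 0.19 and 0.03 in these classes. Guides therefore differed from each other by more than their replicate libraries did. Among guides with 10 to 30 counts at T0, 30.8% had no count in either vehicle library, while 3 guides did so among the 9939 with 100 to 300.

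**Figure D1:**
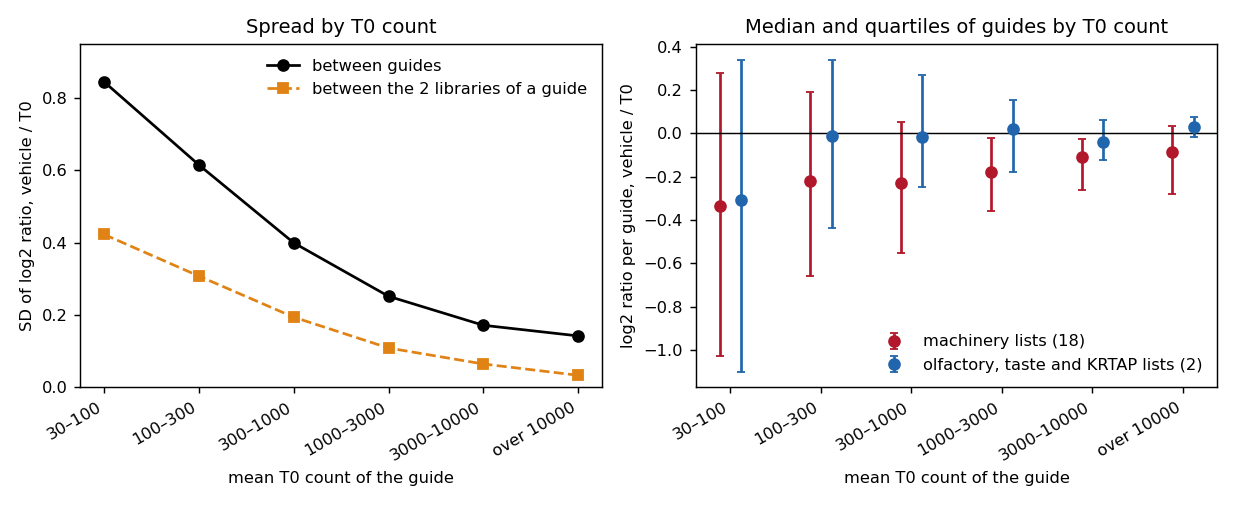
Left, standard deviation of the log2 ratio of vehicle over T0 between guides (circles) and between the 2 library pairs of a guide (squares), by mean T0 count. Right, median (points) and quartiles (bars) of guides to 18 lists of cell machinery and to 2 lists of olfactory, taste and keratin-associated genes. The spread fell to 0.14 above 10000 counts, and the machinery medians lie below those of the other lists in each class above 100 counts.

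Control guides moved too. Of 93 control guides tested by edgeR's quasi-likelihood test, 20 were lower (21.5%) and 33 higher (35.5%) with vehicle at an adjusted p under 0.05, or 57% called, against 45.2% of the 44193 guides tested, of which 24.5% were lower and 20.7% higher. The share of control guides called was 35.2% without vehicle replicate 1, 32.3% without T0 replicate 1 and 37.1% without T0 replicate 2. The 44 LacZ guides with at least 30 counts at T0 had a median log2 ratio of 0.15 and ranged from -1.74 to 1.43. The 8 EGFP guides had a median of 0.19. The 9 luciferase guides had a median of -0.67 and edgeR called 9 of 16 luciferase guides lower. The standard deviation over the 61 control guides was 0.60, as it was over all 34640 guides, and the 3 kinds of control did not move alike. Counts summed per gene gave 4203 genes lower (23.6%) and 3995 higher (22.4%) of 17815 tested by edgeR. Without T0 replicate 1 these were 2503 and 2470, and without T0 replicate 2 they were 2654 and 2544. Scaled to the control guides in place of TMM, the same test gave 8139 lower and 1651 higher, with a median of all genes at -0.19 on the log2 scale, against -0.01 with TMM. Because guides of 1 gene share a target but not their noise, genes are called here by NormZ. This score divides each guide's log2 ratio by the spread of guides of similar T0 count and sums it over the guides and libraries of a gene, in units of its standard deviation over genes. "Fell" and "rose" below mean past an adjusted p of 0.05 by NormZ. Groups said not to overlap are only described so, with 2 libraries against 2. The share of all genes without overlap was not counted, while edgeR called 23.6% of genes lower and 22.4% higher.

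By NormZ, 7 genes fell (0.0596% of 11738) and 0 rose. They were COA3, POP5, TRRAP, PSMB2, ARRDC2, CYC1 and ZNF207. At an unadjusted p under 0.05, 653 genes were lower (5.56%) and 518 higher (4.41%), and at p under 0.01, 160 were lower (1.36%) and 73 higher (0.622%).

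COA3, an assembly factor of cytochrome c oxidase in the mitochondrial inner membrane, had the lowest score. Its guides, on chromosome 17, summed to 404 and 406 counts per 1000000 of the library (CPM) in vehicle libraries, against 672 and 703 CPM in T0 libraries. Nearly all of this came from 1 guide, which held 99.2% of the gene's T0 counts and had 8846 and 4673 counts with vehicle, against 30683 and 18941 at T0. A second guide had 38 and 24 counts with vehicle, against 238 and 158 at T0. The groups did not overlap for either guide, and the log2 ratios were -0.76 and -1.32. NormZ was -5.18 with an adjusted p of 0.00131. The summed counts gave a log2 fold change of -0.75 ± 0.02 (SE, edgeR). A pair of neighbouring COA3 guides overlap on the genome, so they are not fully separate cuts. Other genes named below also had overlapping neighbouring guides. Among them were CCL2, RPL14, RPS23, UBE2L3 and NDNL2 with 1 pair each, and MRPL34 with 2. CYC1, on chromosome 8, encodes cytochrome c1 of respiratory complex III. It had 11.2 and 15.6 CPM with vehicle, against 30.01 and 29.3 CPM at T0, and its guides had log2 ratios of -1.04 and -1.67 (NormZ -4.07, adjusted p = 0.0456). Both respiratory genes fell.

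POP5, on chromosome 12, is a subunit of RNase P and RNase MRP, which process tRNA and rRNA precursors. It had 54.5 and 63.9 CPM with vehicle, against 111 and 104 CPM at T0. Its main guide had 1192 and 723 counts with vehicle, against 4998 and 2781 at T0, a log2 ratio of -0.85. Its next guide had 0 and 2 counts with vehicle, against 64 and 32 at T0, and NormZ was -4.35 (adjusted p = 0.0391). PSMB2, on chromosome 1, is a beta subunit of the proteasome core and was the 1 gene of the 7 with 4 guides above the minimum. It had 320 and 324 CPM with vehicle, against 422 and 424 CPM at T0. All 4 guides were lower, with log2 ratios of -0.35, -0.47, -0.95 and -1.33 in order of falling T0 count (NormZ -4.10, adjusted p = 0.0456). The rarer the PSMB2 guide, the lower its ratio, and edgeR called all 4 lower.

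TRRAP, on chromosome 7, is the scaffold of histone acetyltransferase complexes that MYC and other activators recruit. It had 459 and 435 CPM with vehicle, against 646 and 665 CPM at T0, and its 3 guides had log2 ratios of -0.55, -0.40 and -1.30 (NormZ -4.17, adjusted p = 0.0456). ZNF207, on chromosome 17, encodes a microtubule-binding partner of the spindle checkpoint protein BUB3. It had 6.005 and 7.09 CPM with vehicle, against 19.0 and 19.3 CPM at T0, with log2 ratios of -1.28 and -1.76 (NormZ -4.02, adjusted p = 0.0486). Both genes were lower in each guide above the minimum, and vehicle and T0 libraries did not overlap. ARRDC2, an arrestin domain protein on chromosome 19, had 3.09 and 2.25 CPM with vehicle, against 10.5 and 10.4 CPM at T0. Its guides differed widely. The first had 6 and 4 counts with vehicle, against 266 and 160 at T0 (log2 ratio -2.97), and the second 62 and 22 with vehicle, against 208 and 112 at T0 (log2 ratio -0.77). NormZ was -4.10 (adjusted p = 0.0456).

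Of these calls, COA3 alone passed both without replicate 1 and without replicate 2. POP5, CYC1 and ZNF207 lost theirs without replicate 1 (adjusted p = 0.254, 0.375 and 0.253), TRRAP without replicate 2 (0.220), and PSMB2 and ARRDC2 without either (0.0691 without replicate 1 and 0.0863 without replicate 2 for both). With each vehicle library set against the mean of the T0 libraries, COA3 and POP5 passed, and with at least 3 guides required, 2 of the 7 could be tested and 0 of 5171 genes passed. With no T0 minimum, POP5, CYC1 and ZNF207 did not pass (adjusted p = 0.0598, 0.230 and 0.124). With a T0 minimum of 100, PSMB2 did not pass (adjusted p = 0.0514) and POP5 could not be tested.

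The genes next in order did not pass. DHX9, an RNA helicase, stood just outside the threshold with 57.2 and 57.4 CPM in vehicle libraries, against 95.7 and 94.5 CPM in T0 libraries (NormZ -3.98, adjusted p = 0.05003). CCL2, a secreted chemokine, had 28.7 and 25.8 CPM with vehicle, against 45.7 and 43.6 CPM at T0 (NormZ -3.71, adjusted p = 0.107). For both genes the groups did not overlap. MOCS3 activates the sulphur carriers used for the molybdenum cofactor and for tRNA. Both of its measured guides were abundant, with 2678 and 1336 counts with vehicle, against 7074 and 4273 at T0, for the first, and 2114 and 1118 with vehicle, against 6432 and 3767 at T0, for the second (NormZ -3.70, adjusted p = 0.107). A3GALT2, a glycolipid galactosyltransferase, had 2.09 and 2.86 CPM with vehicle, against 11.3 and 10.4 CPM at T0 (NormZ -3.70, adjusted p = 0.107).

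**Figure D2:**
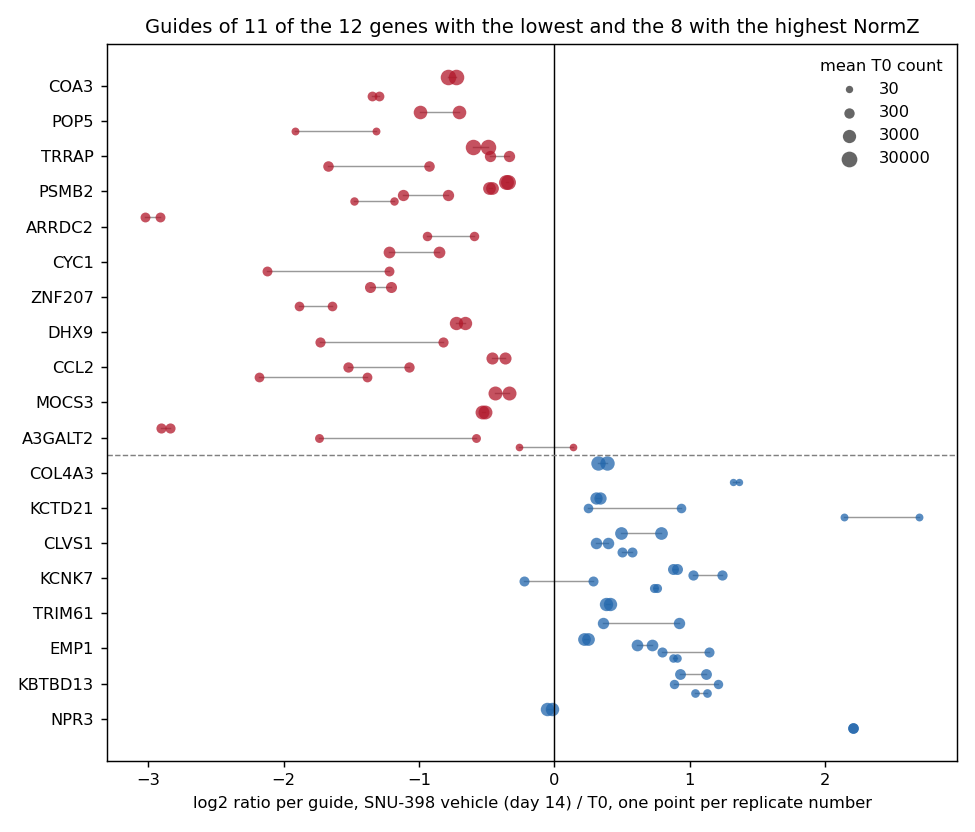
Log2 ratio of vehicle over T0 for each guide with a mean T0 count of at least 30, for 11 of the 12 genes with the lowest NormZ (red, above the dashed line) and the 8 with the highest (blue, below it). Each guide has 1 point per replicate number joined by a line, and larger points have more T0 counts. COA3 has its larger guide at -0.76 and its smaller at -1.32, and the A3GALT2 guide with the fewest counts crosses 0.

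The same guides were counted in 11 SNU-398 libraries of the inhibitor groups, leaving out the second Erastin library, since the Erastin pair correlated at 0.948 on the log2 scale and the pairs of the other 7 groups at 0.988 to 0.995. They are a description only, since those cells were treated. COA3 ranged from 129 to 342 CPM there, POP5 from 23.4 to 46.4, and PSMB2 from 189 to 316. Each of these ranges lies below both T0 libraries (at least 672, 104 and 422 CPM), as do those of TRRAP, CYC1 and ZNF207, with highest values of 506, 27.9 and 12.1 CPM. ARRDC2 ranged from 1.71 to 17.6 CPM, which overlaps its T0 values of 10.5 and 10.4 CPM. Ranges below T0 were also seen in genes that did not fall. PSTK ranged from 100 to 319 CPM, against at least 415 CPM at T0, and SOD2 from 26.5 to 77.8 CPM, against at least 105 CPM. The share of all genes with such a range was not counted, and the T0 values are those used for the calls.

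Guides with at least 1000 counts at T0 showed the smallest spread, and they were looked at alone after the values had been seen. There were 5546 of them, with a median log2 ratio of -0.0021 and 3 below -1. These 3 were a guide to NR2E1, a nuclear receptor of the brain (-1.24), 1 to MRPL53, a protein of the large mitochondrial ribosome subunit (-1.11), and 1 to SLC25A3, the phosphate carrier of mitochondria (-1.07). The SLC25A3 guide had 27.7 and 25.4 CPM with vehicle, against 55.6 and 57.1 CPM at T0. Next came guides to CINP, WDR74, SLC22A18AS and IMP3 at -0.98, -0.97, -0.96 and -0.95. WDR74 and IMP3 act in ribosome assembly. The 2 most raised guides were to CTDNEP1, a phosphatase of the nuclear envelope (0.84), and ZNF575 (0.77). Of the 20 lowest deep guides 3 belonged to the lists of cell machinery described next, and of the 20 highest 0 did, where 3.71% of all deep guides did.

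With the T0 minimum raised to 1000 counts, 548 genes kept 2 or more guides and 4 passed as lower, NDNL2, EXOSC3, MOCS3 and PES1. NDNL2 is a subunit of the SMC5-SMC6 complex, EXOSC3 of the RNA exosome, and PES1 acts in assembly of the large ribosomal subunit. NDNL2 had 1564 and 852 counts with vehicle, against 4516 and 2697 at T0, for its main guide, and 772 and 445 with vehicle, against 3086 and 1719 at T0, for the next (NormZ -4.01, adjusted p = 0.0165). The 2 deep EXOSC3 guides had log2 ratios of -0.49 and -0.49 (NormZ -3.62, adjusted p = 0.0322), and those of PES1 -0.42 and -0.86 (NormZ -3.50, adjusted p = 0.0322). In each of these 3 genes a further guide with 319 to 517 T0 counts did not share this, at log2 ratios of 0.24, 0.16 and -0.09 for NDNL2, EXOSC3 and PES1. With the minimum of 30 none of the 4 passed (adjusted p = 0.305, 0.439, 0.107 and 0.331 for NDNL2, EXOSC3, MOCS3 and PES1).

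Genes were then grouped into 25 lists by role. The 18 lists of cell machinery held 705 genes, 425 of them with a NormZ. Their 1263 guides had a median log2 ratio of -0.21 (quartiles -0.61 and 0.11), against -0.06 for all 34579 gene guides and -0.05 for 745 guides to olfactory receptors, taste receptors and keratin-associated proteins. The median was -0.22 in pair 1 and -0.21 in pair 2. By NormZ 2 of the 425 fell, PSMB2 and CYC1, and 0 rose. At an unadjusted p under 0.05, 67 were lower (15.8%, background 5.56%) and 3 higher (0.706%, background 4.41%), while of 237 olfactory, taste and keratin-associated genes 7 were lower (2.95%) and 15 higher (6.33%). Of the 160 genes lower at p under 0.01, 28 were machinery genes (17.5%, against 3.62% of all genes tested). The shift was small beside the spread of single guides. Among the 173 machinery genes with at least 3 guides, 53 had every guide below 0 (30.6%), against 884 of all 5171 such genes (17.1%). On counts summed per gene, edgeR called 275 of 685 machinery genes lower (40.1%, background 23.6%) and 67 higher (9.78%, background 22.4%), and of 420 olfactory, taste and keratin-associated genes 84 lower (20%) and 102 higher (24.3%). In guides with 1000 to 3000 T0 counts the machinery median was -0.18, against 0.02 for the olfactory, taste and keratin-associated guides, and above 10000 counts it was -0.08 against 0.03.

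Of the protein synthesis lists, translation factors, cytosolic tRNA synthetases and the cytosolic ribosome had medians among the lowest, and the mitochondrial ribosome did not. Guides to cytosolic ribosomal proteins had a median of -0.29, and of 26 genes 0 fell and 6 were lower at an unadjusted p under 0.05 (23.1%, background 5.56%). RPL14, of the large subunit, had 3 guides with log2 ratios of -0.83, -0.57 and -1.98 (NormZ -3.65, adjusted p = 0.111). RPS23, of the small subunit, had its main guide at 7489 and 3846 counts with vehicle, against 25037 and 15226 at T0, and a second guide at a log2 ratio of -0.13 (NormZ -3.51, adjusted p = 0.136). All 3 RPL14 guides were called lower by edgeR, while the second RPS23 guide was not (adjusted p = 0.656). Translation factors had a median of -0.39 (-0.32 without replicate 1, -0.38 without replicate 2 and -0.11 in guides with at least 1000 T0 counts), with 0 of 20 called. At an unadjusted p under 0.05, 1 was lower (5%, background 5.56%), a share no higher than over all genes. It was EIF4E, the cap-binding factor (NormZ -1.69). ETF1, the stop codon release factor, went the other way (NormZ 1.44, adjusted p = 0.967). Cytosolic tRNA synthetases had a median of -0.29, and 4 of 12 were lower at an unadjusted p under 0.05 (33.3%, background 5.56%). They were led by IARS, the isoleucine enzyme (NormZ -3.15, adjusted p = 0.283), YARS and QARS (both adjusted p = 0.782). The mitochondrial ribosome had a median of -0.23 and 9 of 47 lower at an unadjusted p under 0.05 (19.1%, background 5.56%). MRPL34, MRPS34 and MRPS16 had median log2 ratios of -1.28, -0.75 and -1.23, with none past the threshold (adjusted p = 0.521, 0.621 and 0.621).

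Protein breakdown and folding lists also had medians below that of all genes. In the proteasome (median -0.22) PSMB2 was the 1 of 18 genes that fell, and PSMC4 and PSMD11, of the regulatory particle, had NormZ of -2.92 and -2.35 (adjusted p = 0.380 and 0.710). Ubiquitin, NEDD8 and SUMO enzymes had a median of -0.16, with UBE2L3, a ubiquitin-conjugating enzyme, at 3 guides of -0.54, -1.15 and -1.53 (NormZ -3.37, adjusted p = 0.182), and DDB1 and VCP at NormZ -2.05 and -2.03. The CCT chaperonin, which folds actin and tubulin, had a median of -0.21, with CCT2 lowest (NormZ -2.70, adjusted p = 0.507). For the V-ATPase, the proton pump of lysosomes, the median of guides was -0.19 but the median NormZ of its 13 genes was 0.11, so the signs differ. ATP6V1G1 and ATP6V1B2 were lowest (NormZ -3.01 and -2.51), and ATP6AP2 stood at 0.97.

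Lists of RNA synthesis, splicing and transport had medians of -0.21 for RNA polymerase II and general transcription factors, -0.25 for RNA polymerases I and III, -0.16 for the spliceosome and -0.36 for nuclear pore and transport. None of their 26, 12, 34 and 25 genes passed. In the same order, 5, 0, 7 and 1 were lower at an unadjusted p under 0.05 (19.2%, 0%, 20.6% and 4%, background 5.56%). In guides with at least 1000 T0 counts the medians were -0.13, 0.04, -0.12 and -0.28. TAF2, a TFIID subunit, and POLR2I had NormZ of -2.42 and -2.19, while TAF1, the largest TFIID subunit, had 2.02. DHX15 and SNRNP200, helicases of the spliceosome, had -2.68 and -2.22, and the import factor KPNA2 had -2.38. POLR2A, the catalytic subunit of RNA polymerase II, had 23.9 and 25.4 CPM with vehicle, against 30.7 and 31.1 CPM at T0. Its 3 measured guides had log2 ratios of -0.42, -0.12 and -0.41. NormZ was -0.88 (adjusted p = 0.992), while edgeR called the summed counts lower (adjusted p = 0.00279). Among polymerase I and III genes, POLR3A and TAF1C had NormZ of -1.58 and -1.64. The TAF1C score came from 1 guide at a log2 ratio of -0.73, while its other measured guides were at 0.12 and 0.35.

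Among the lists of cell division, DNA replication and mitosis were nearer to all genes than cohesin and condensin with the main settings. With no T0 minimum the medians were -0.09 for DNA replication, -0.23 for mitosis and -0.14 for cohesin and condensin. Mitosis was then the lowest, so this order depended on the T0 minimum. DNA replication had a median of -0.10 and 0 of 32 genes called, with GINS3, of the replicative helicase, and LIG1, the ligase of the lagging strand, at NormZ -2.20 and -1.70, while GINS4, of the same complex as GINS3, had 1.52. Mitosis had a median of -0.14 and 7 of 37 genes lower at an unadjusted p under 0.05 (18.9%, background 5.56%). They were led by ESPL1 (separase), MAD2L1 of the spindle checkpoint and CENPC of the kinetochore (NormZ -2.88, -2.36 and -2.34, adjusted p = 0.393, 0.710 and 0.715). The mitotic kinase gene PLK1 did not share this, with 30.8 and 36.3 CPM with vehicle, against 27.5 and 32.8 CPM at T0 (NormZ 1.06, adjusted p = 0.967). PLK1 libraries of the 2 groups overlapped. Cohesin and condensin had a median of -0.27, with SMC4 of condensin and PDS5A of cohesin at NormZ -2.48 and -1.98.

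In the metabolic lists the medians over both pairs were also below that of all genes. Oxidative phosphorylation had a median of -0.18, and of 45 genes CYC1 fell and 7 were lower at an unadjusted p under 0.05 (15.6%, background 5.56%). ATP5B, the catalytic beta subunit of ATP synthase, had guides at -0.59, -1.04 and -1.70 (NormZ -3.54, adjusted p = 0.130), and NDUFB4 of complex I had a NormZ of -2.71. Nucleotide synthesis had a median of -0.15, with MTHFD1, a folate enzyme, at 2 guides of -0.57 and -1.47 (NormZ -3.32, adjusted p = 0.192), DUT, the dUTPase, at NormZ -2.43, and NME1 at 1.74. Haem and iron-sulphur synthesis had a median of -0.23, with ISCU, the scaffold of iron-sulphur clusters, and PPOX of haem synthesis at NormZ -2.80 and -2.11. Selenocysteine and ferroptosis genes had a median of -0.17 (-0.05 in pair 1 and -0.16 in pair 2), but -0.01 with no T0 minimum and -0.04 without replicate 2. At an unadjusted p under 0.05, 1 of 23 was lower (4.35%, background 5.56%) and 1 higher (4.35%, background 4.41%). GSS, glutathione synthetase, was lowest (NormZ -2.66, adjusted p = 0.515) and TXNRD2, mitochondrial thioredoxin reductase, highest (NormZ 2.32, adjusted p = 0.967).

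**Figure D3:**
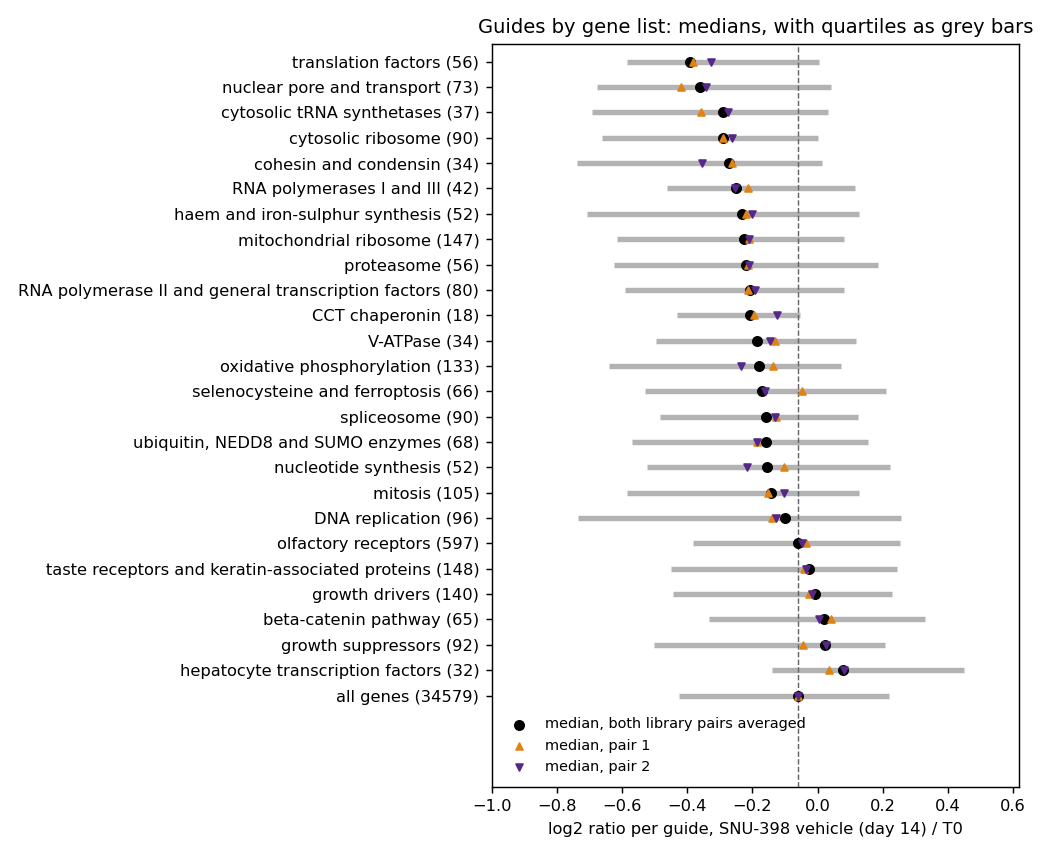
Median log2 ratio of vehicle over T0 per guide for 25 gene lists and all genes (black points, with the number of guides), with quartiles as grey bars and the medians of the 2 library pairs as triangles. The dashed line is the median of all genes at -0.06. Translation factors and nuclear pore genes are at -0.39 and -0.36, and the quartile bars of all lists overlap.

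With the main settings, genes of growth control did not lie below all genes. Medians were 0.02 for growth suppressors, 0.02 for the beta-catenin pathway, -0.01 for growth drivers and 0.08 for hepatocyte transcription factors, and no member passed in either direction. The growth suppressor median was -0.07 without replicate 2 and -0.04 with no T0 minimum. That of hepatocyte factors was -0.07 with no T0 minimum, so these signs depended on the settings. The 61 control guides had a median of 0.12, so these 4 lists all lay below the controls. RB1, which restrains entry into S phase, had 19.0 and 20.1 CPM with vehicle, against 11.7 and 10.5 CPM at T0. The difference came from 1 guide, with 276 and 154 counts with vehicle, against 190 and 92 at T0 (log2 ratio 1.66), while the other was at -0.12 (NormZ 1.84, adjusted p = 0.967). KEAP1, the adaptor that marks NRF2 for breakdown, had 95.3 and 101 CPM with vehicle, against 86.8 and 82.5 CPM at T0, with guides at 0.15, -0.14 and 0.89 (NormZ 1.60, adjusted p = 0.967). For both suppressors the groups did not overlap, and in each 1 guide was well above 0 and at least 1 below it. LATS1, a kinase of the Hippo pathway, had a score below 0 (NormZ -1.76, adjusted p = 0.895).

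CTNNB1, the gene for beta-catenin, had 26.7 and 31.2 CPM with vehicle, against 26.4 and 25.2 CPM at T0. Its guides were at -0.37, 0.70 and 0.33 (NormZ 0.83, adjusted p = 0.967). The guides did not move alike, since edgeR called the first lower and the second higher (adjusted p = 0.0231 and 0.00105). In the same list DVL1, which relays Wnt signals, had a NormZ of 2.25, and GSK3B, a kinase of the destruction complex, -2.16 (adjusted p = 0.967 and 0.796). MYC and NF2 had 1 guide each above the T0 minimum and no NormZ. The MYC guide had 270 and 140 counts with vehicle, against 506 and 280 at T0 (log2 ratio 0.19), and the NF2 guide had 820 and 425 with vehicle, against 1856 and 1043 at T0 (log2 ratio -0.09). Among growth drivers the survival factor MCL1 had the highest score (NormZ 2.02, adjusted p = 0.967) and PIK3CB the lowest (-1.69, adjusted p = 0.895). Among hepatocyte factors ONECUT1 was highest (NormZ 2.07, adjusted p = 0.967).

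PSTK phosphorylates the serine on the selenocysteine tRNA, the step before SEPSECS turns it into selenocysteine. PSTK had 410 and 385 CPM with vehicle, against 416 and 415 CPM at T0. Its main guide held 96.8% of the T0 counts at a log2 ratio of -0.06, and the others were at -0.72 and 0.04 (NormZ -0.68, adjusted p = 0.992). SEPSECS had 64.0 and 72.5 CPM with vehicle, against 62.4 and 66.7 CPM at T0, and these overlap (NormZ 0.19, adjusted p = 0.967). GPX4, the selenoenzyme that reduces lipid peroxides, had 13.5 and 13.8 CPM with vehicle, against 16.4 and 18.5 CPM at T0, with guides at -0.48, -0.53 and 0.77 (NormZ -0.31, adjusted p = 0.992). SOD2, the superoxide dismutase of mitochondria, had 98.3 and 87.9 CPM with vehicle, against 105 and 109 CPM at T0, with guides at -0.43, 0.29 and -0.03 (NormZ -0.42, adjusted p = 0.992). None of these 4 genes passed in either direction, and the scores of SEPSECS, GPX4 and SOD2 changed sign without replicate 2.

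No gene rose. NPR3, the clearance receptor of natriuretic peptides, scored highest through 1 guide with 1032 and 557 counts with vehicle, against 452 and 274 at T0 (log2 ratio 2.20), while its more abundant guide stood at -0.04 (NormZ 3.50, adjusted p = 0.967). KBTBD13, a cullin adaptor of muscle, had 42.4 and 36.3 CPM with vehicle, against 18.9 and 18.7 CPM at T0, and its 3 guides were alike at 1.02, 1.05 and 1.08 (NormZ 3.43, adjusted p = 0.967). EMP1, a membrane protein of epithelia, had 4 guides at 0.23, 0.66, 0.97 and 0.89 (NormZ 3.28, adjusted p = 0.967). KBTBD13 and EMP1 thus had every measured guide above 0, unlike NPR3. TRIM61, KCNK7, CLVS1, KCTD21 and COL4A3 followed with NormZ of 3.12, 3.08, 3.05, 3.02 and 3.01, all with an adjusted p of 0.967. Olfactory receptors reached similar scores, with OR10H4 at 2.68 and OR52B2 at 2.61.

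Hep3B, another hepatocellular carcinoma line, was screened with the same library and gave 2 vehicle and 2 T0 libraries of its own. There NormZ gave 4 genes lower and 0 higher of 11425. Over 10463 genes with a score in both lines the Pearson correlation was 0.13 and the Spearman correlation 0.12, across genes that are not independent and share guides. The difference of scores, SNU-398 minus Hep3B, passed for 0 of 10463 genes, with 378 (3.61%) at an unadjusted p under 0.05 and a smallest adjusted p of 0.250. No gene can thus be called particular to SNU-398. Scores of COA3 were -5.18 in SNU-398 and -0.90 in Hep3B, and those of CYC1 -4.07 in SNU-398 and 0.07 in Hep3B (adjusted p of both differences 0.997).

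At an unadjusted p under 0.01, 146 genes were lower in SNU-398 and 151 in Hep3B, and 9 were lower in both, which is 6.16% of the first list and 5.96% of the second. Over all 10463 genes, 1.44% were lower in Hep3B and 1.40% in SNU-398. No test of the overlap was made. They were PSMB2, RPL14, RPS23, PES1, SLC25A3, KIF14, a kinesin of cytokinesis, C17orf53, which acts in DNA repair, NAA50, an N-terminal acetyltransferase, and GOLGA1, a Golgi coiled-coil protein. KIF14 had its main guide at 148 and 74 counts with vehicle, against 766 and 490 at T0, in SNU-398, with scores of -3.61 in SNU-398 and -4.51 in Hep3B. PES1 had scores of -3.01 in SNU-398 and -3.13 in Hep3B. The largest differences downward in SNU-398 were at NR2F2, a nuclear receptor (-3.36 in SNU-398 and 2.61 in Hep3B), SAMD10, AP4M1, ARRDC2 and MADCAM1, and upward at MTCP1 (0.97 in SNU-398 and -3.65 in Hep3B), ASTL, TEKT5, BSG, the chaperone of lactate transporters (1.44 in SNU-398 and -2.91 in Hep3B), and SLC14A2. The NR2F2 score in SNU-398 rested on 1 deep guide, with 2092 and 1060 counts with vehicle, against 8005 and 4438 at T0, while the other measured guide had a log2 ratio of 0.23.

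**Figure D4:**
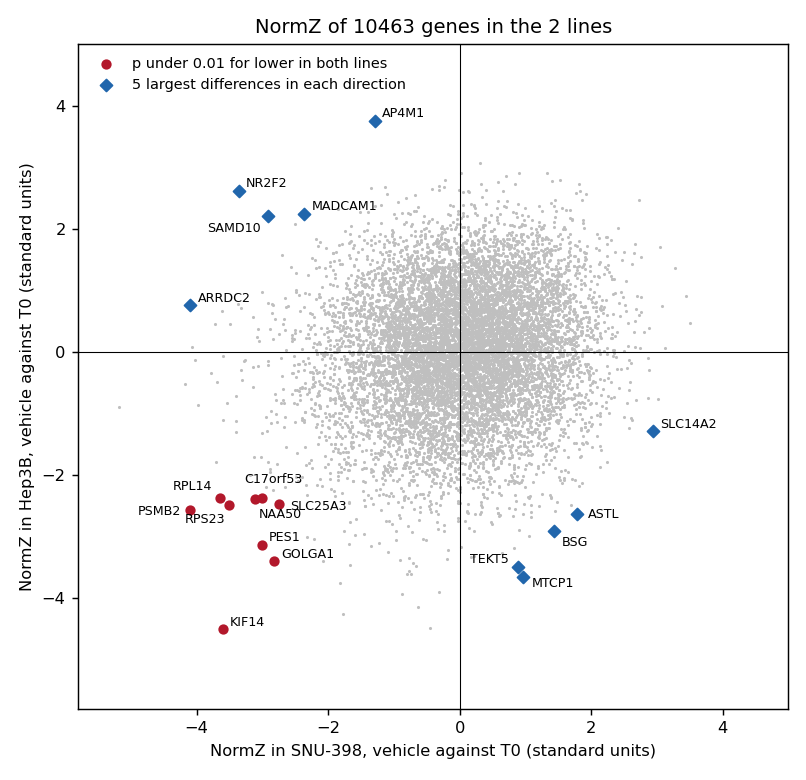
NormZ of vehicle against T0 in SNU-398 (x axis) and Hep3B (y axis), in standard units, for 10463 genes (grey). Red circles mark the 9 genes lower in both lines at an unadjusted p under 0.01, and blue diamonds the 5 largest differences in each direction. The cloud is nearly round (Pearson correlation 0.13), and no difference passed the test.

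Guides were also ordered along the chromosomes by the positions in the table. The median log2 ratio per chromosome lay between -0.10 on chromosome 12 (1843 guides) and -0.03 on chromosome 20 (1000 guides), the Y chromosome left out. In runs of 25 neighbouring genes, 97.6% of 11179 overlapping runs had a median within 0.2 of that of all genes (-0.08). The lowest run, on chromosome 22 from MICAL3 to SNAP29, had a median of -0.42, and the highest, on chromosome 17 from KRT40 to DNAJC7, 0.23. Runs share genes with their neighbours, so these values describe the order and are not separate measurements.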

How the data were processed

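The study amplified guide inserts from genomic DNA and sequenced them, and the counts of reads per guide that the authors deposited were obtained with Bowtie2. The Bowtie2 version and settings and the genome build were not given in the sources used here. Guide coordinates are therefore not printed, and positions served only to order guides along chromosomes and to find overlapping ones. Guide sequences were not used here. RNA-seq tables of the series were not analysed here. Columns were matched to samples by name. A total of 26 gene names that the table shows as dates (97 guides) were kept as they stand.

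Gene lists, members and tests were chosen with earlier results of these data known. NormZ followed the steps of DrugZ, run with numpy 2.4.6, pandas 2.3.3 and scipy 1.17.1 under Python 3.11.15. Counts were scaled to 10000000 per library, 5 was added, and each vehicle library was divided by the T0 library of the same number. Each log2 ratio was then set over the standard deviation in windows of 1000 guides ordered by T0 count. Guides needed a mean T0 count of 30 and genes 2 such guides. One-sided normal p-values were adjusted over all genes by the method of Benjamini and Hochberg, as were two-sided ones for the difference between lines. Counts per guide and per gene were tested in R 4.3.3 with edgeR 4.0.16 (TMM, filterByExpr, quasi-likelihood test). CPM are counts per 1000000 of a library's total. The alternatives were DESeq2 1.42.0, other scalings, minimums, pseudocounts and libraries, and leaving out each library. NormZ, the line difference and edgeR were run on simulated data, and DESeq2 was not. The guide spread set in the NormZ simulation was below that measured here, so it does not show how NormZ does on these data. Figures were drawn with matplotlib 3.10.9.

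Named genes were the 12 lowest and 8 highest NormZ, up to 4 members per list with the smallest p, 13 genes fixed whatever their values (among them PSTK, SEPSECS, SOD2, GPX4, CTNNB1, MYC, RB1, KEAP1, NF2, PLK1 and POLR2A), and the 5 largest line differences in each direction. Some genes that this rule names are not reported here. Genes of the deep guides and those lower in both lines were named after their values were seen. Depth ran from 11558112 to 46043970 counts per library, and the median guide had 12 to 42, which limits the precision of genes without an abundant guide.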

Additional observations from a re-analysis of the deposited data

Results flagged for a closer look

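The median of the beta-catenin list lay just above 0 in both library pairs of SNU-398 and below 0 in both pairs of Hep3B, and this difference was not tested. Its guides had a median log2 ratio of 0.023 in SNU-398 (0.042 in pair 1 and 0.004 in pair 2) and -0.207 and -0.221 in the pairs of Hep3B. The SNU-398 median was -0.01 without replicate 1 and -0.05 with no T0 minimum. All genes had a median of -0.06 in SNU-398 and -0.14 in Hep3B.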

How the results depend on the processing

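By NormZ, 7 genes fell with the main settings, 11 with a pseudocount of 1, 6 with no T0 minimum, 7 with a T0 minimum of 100, 8 with median-of-ratios scaling, 2 with no replicate block, 0 of 5171 with at least 3 guides, 4 of 548 with a T0 minimum of 1000 (chosen after seeing the data), and 2 to 4 without replicate 1 or 2. All 7 were among the calls with a pseudocount of 1 and with median-of-ratios scaling, 4 of the 7 with no T0 minimum, and 5 of the 6 tested with a T0 minimum of 100. No gene rose, and no line difference passed, under any alternative run. By edgeR, genes lower numbered 2663 with DESeq2, 8139 scaled to control guides, 1210 with all 16 libraries, 3608 with the 15 without Erastin replicate 2, and 2503 to 3922 leaving out a library, against 4203. Genes higher numbered 1651 scaled to control guides, 1138 with all 16 libraries, 3460 with those 15, and 2470 to 3899 leaving out a library, against 3995. Guides lower numbered 4500 with all 16 libraries, 12496 with those 15 (chosen after seeing the data), and 6911 to 12267 leaving out a library, against 10818. Guides higher numbered 3253 with all 16, 8682 with those 15, and 5362 to 8988 leaving out a library, against 9141. Control guides called were 22.02% with all 16 libraries, 50% with those 15, and 32.3% to 52.4% leaving out a library, against 57.0%. Halving the counts, chosen after seeing the data, changed no gene or guide count by over 1.5 times. The machinery median minus that of olfactory, taste and keratin-associated guides was -0.16, and -0.17 with a pseudocount of 1, -0.12 with no T0 minimum, -0.19 with a T0 minimum of 100, -0.14 with 1000, and -0.18 without replicate 1 or 2. NormZ changed sign without replicate 2 for SEPSECS (-0.17, and 0.68 without replicate 1), SOD2 (0.096, and -0.85) and GPX4 (0.10, and -1.39), and for CCT7 with no T0 minimum (0.019). With the replicate block, edgeR called 3958 genes lower and 3797 higher. Same-numbered libraries did not deviate together (correlation 0.0029), so the numbers pair nothing that could be seen. The cause of these changes was not tested.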
